A study of Mus musculus with 19 samples.

Results

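The genes described here are 10 markers of the interneuron lineage, out of 51912 genes counted in every library: *Dlx1*, *Dlx2*, *Dlx5*, *Dlx6os1*, *Gad1*, *Gad2*, *Lhx6*, *Nkx2-1*, *Sst* and *Maf*. They were chosen by name, as genes of inhibitory neurons that arise in the subpallium, and no measured value was part of the rule, but earlier results of these data were known when they were chosen. RNA was sequenced from the cortex of 19 mouse embryos on a mixed C57BL/6 and 129 background at E13.5, with 1 library per embryo. The groups were 7 control embryos (ctrl), 5 conditional mutants of *Ino80* made with *Emx1*-Cre (cKO-E), and 7 embryos in which *Ino80* and *Trp53* were deleted together by the same Cre (dKO-E). The labels say of ctrl embryos that they are controls and do not give their alleles. Cre expressed from *Emx1* acts in progenitors of the dorsal telencephalon, so that these progenitors and their descendants, such as the excitatory neurons of the cortex, carry the deletion, while cells of other lineages are expected to keep the gene.

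Cortical interneurons use GABA as their transmitter and are born outside the cortex, in the ganglionic eminences of the ventral telencephalon. DLX homeodomain proteins drive their specification and migration, NKX2-1 patterns the medial ganglionic eminence and switches on *Lhx6* there, and most cells silence *Nkx2-1* before they enter the cortex. At mid-gestation the first migrating interneurons are crossing from the subpallium into the cortical wall. Their lineage is not recombined by *Emx1*-Cre, so these genes mark cells that are expected to keep *Ino80*. In bulk tissue, fewer cells of a type and less RNA per cell cannot be told apart, and these values are also relative to the RNA of all other cells in the sample.

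In GRCm38, 5 of the 10 genes lie on chromosome 2, which also holds *Ino80*: *Gad2* (22622205 to 22693874), *Lhx6* (36081953 to 36105408), *Gad1* (70553072 to 70602014), and the neighbours *Dlx1* (71528113 to 71533981) and *Dlx2* (71543408 to 71546754). *Dlx5* (6877805 to 6882085) and *Dlx6os1* (6820189 to 6871592) lie next to each other on chromosome 6, *Maf* (115682942 to 115707794) on chromosome 8, *Nkx2-1* (56531958 to 56536908) on chromosome 12 and *Sst* (23889573 to 23890958) on chromosome 16. *Dlx6os1* is a long noncoding RNA read from the strand opposite *Dlx6*, and the other 9 code for proteins. The strand setting of the authors' counting was not given in the sources used here, so reads of overlapping genes on opposite strands may not have been told apart. This touches *Dlx1*, which shares 335 exon bases with *Dlx1as*, *Maf*, which shares 440 with *Gm15655*, and *Dlx6os1*, whose span contains *Dlx6*. Values of these 3 genes may therefore hold reads of their partners.

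Start-site windows of 300 bases (250 before and 50 after a transcript start, RefSeq on GRCm38.p6) were given for 8 of the 10 genes, in 11 windows. The windows below belong to *Dlx6os1*, *Dlx1* and *Gad2*, which had the 3 largest fitted differences between cKO-E and ctrl. Capitals mark TAATTA, a core sequence that many homeodomain proteins can bind, searched on both strands.
Dlx6os1, chr6:6869484-6869783, minus strand: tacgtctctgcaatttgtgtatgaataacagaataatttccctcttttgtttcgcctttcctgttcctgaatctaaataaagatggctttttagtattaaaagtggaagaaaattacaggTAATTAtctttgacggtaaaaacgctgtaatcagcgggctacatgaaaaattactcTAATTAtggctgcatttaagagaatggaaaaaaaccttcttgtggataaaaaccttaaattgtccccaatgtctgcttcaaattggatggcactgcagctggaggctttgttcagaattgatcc
Dlx6os1, chr6:6861634-6861933, minus strand: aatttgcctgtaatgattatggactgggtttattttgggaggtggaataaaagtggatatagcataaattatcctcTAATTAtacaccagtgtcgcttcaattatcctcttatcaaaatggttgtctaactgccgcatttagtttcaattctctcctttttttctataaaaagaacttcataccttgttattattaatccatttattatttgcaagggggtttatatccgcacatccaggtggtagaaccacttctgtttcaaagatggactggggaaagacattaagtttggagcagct
Dlx1, chr2:71529195-71529494, plus strand: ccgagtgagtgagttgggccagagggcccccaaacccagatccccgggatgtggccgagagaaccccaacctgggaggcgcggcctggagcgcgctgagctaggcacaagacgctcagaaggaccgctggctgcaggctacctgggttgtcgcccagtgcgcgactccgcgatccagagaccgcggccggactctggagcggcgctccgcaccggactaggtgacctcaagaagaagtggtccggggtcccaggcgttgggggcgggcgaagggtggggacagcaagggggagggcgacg
Gad2, chr2:22622077-22622376, plus strand: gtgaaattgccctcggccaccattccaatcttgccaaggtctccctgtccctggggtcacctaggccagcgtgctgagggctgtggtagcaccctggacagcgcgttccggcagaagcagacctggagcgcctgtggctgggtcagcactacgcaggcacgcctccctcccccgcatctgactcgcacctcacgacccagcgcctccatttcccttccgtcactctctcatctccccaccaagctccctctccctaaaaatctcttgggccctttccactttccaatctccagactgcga

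TAATTA occurred in 2 of the 11 windows, which were the 2 windows of *Dlx6os1*. It was present in 5.29% of all 32851 windows of the same length. The *Dlx6os1* windows had a GC content of 35.7% and 35.3%, against 69.3% for *Dlx1* and 61.3% for *Gad2*. A match is a description of the letters and not a measured binding site.

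Libraries held between 820915 and 8095810 counts on genes, and 3 counts, the floor used here for detection, were worth between 0.369 and 3.71 CPM (counts scaled to a common library size with edgeR's TMM factors over all 19 libraries). The targeted genes could not check the labels, because the counts are sums over whole genes and not over the deleted exons. *Ino80* stood at 121 ± 8.62 CPM in ctrl (SD, n = 7), 166 ± 14.7 in cKO-E (SD, n = 5) and 186 ± 13.7 in dKO-E (SD, n = 7), so the whole-gene count was higher in both mutants, and all directions below are between libraries as labelled. *Trp53* stood at 43.7 ± 5.21, 39.2 ± 4.66 and 34.6 ± 4.92 CPM in the same order. Of 16 genes of the pallial lineage, 15 passed the filter on low counts. Of 8 progenitor factors of the subpallium, *Gsx1*, *Gsx2*, *Olig1*, *Nkx6-2*, *Vax1* and *Six3* had at most 3 counts in every library, and so did the striatal and basal forebrain genes *Isl1*, *Rxrg*, *Tac1* and *Lhx8*.

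*Nkx2-1* was close to undetected: it had at most 1 count in any library, with 2 counts over the 7 ctrl, 0 over the 5 cKO-E and 2 over the 7 dKO-E libraries. Of the other 9 genes, 6 passed the filter on low counts over all libraries (*Dlx1*, *Dlx6os1*, *Gad1*, *Gad2*, *Lhx6* and *Maf*), and *Dlx2*, *Dlx5* and *Sst* did not. Per kilobase of exon, mean levels in ctrl ran from 3.61 CPM for *Dlx6os1* and 3.49 for *Gad2* through 2.04 for *Sst*, 1.93 for *Lhx6*, 1.42 for *Gad1* and 1.01 for *Maf* to 0.799 for *Dlx5*, 0.536 for *Dlx1* and 0.48 for *Dlx2*. Per kilobase of gene span, introns included, *Sst* came first at 1.06 CPM and *Gad1* and *Gad2* last but for *Nkx2-1*, at 0.222 and 0.286. Between 4.96% and 12.5% of reads fell outside genes, and the feature type that the authors counted was not given in the sources used here, so the order of levels between genes depends on which length applies.

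**Figure D1:**
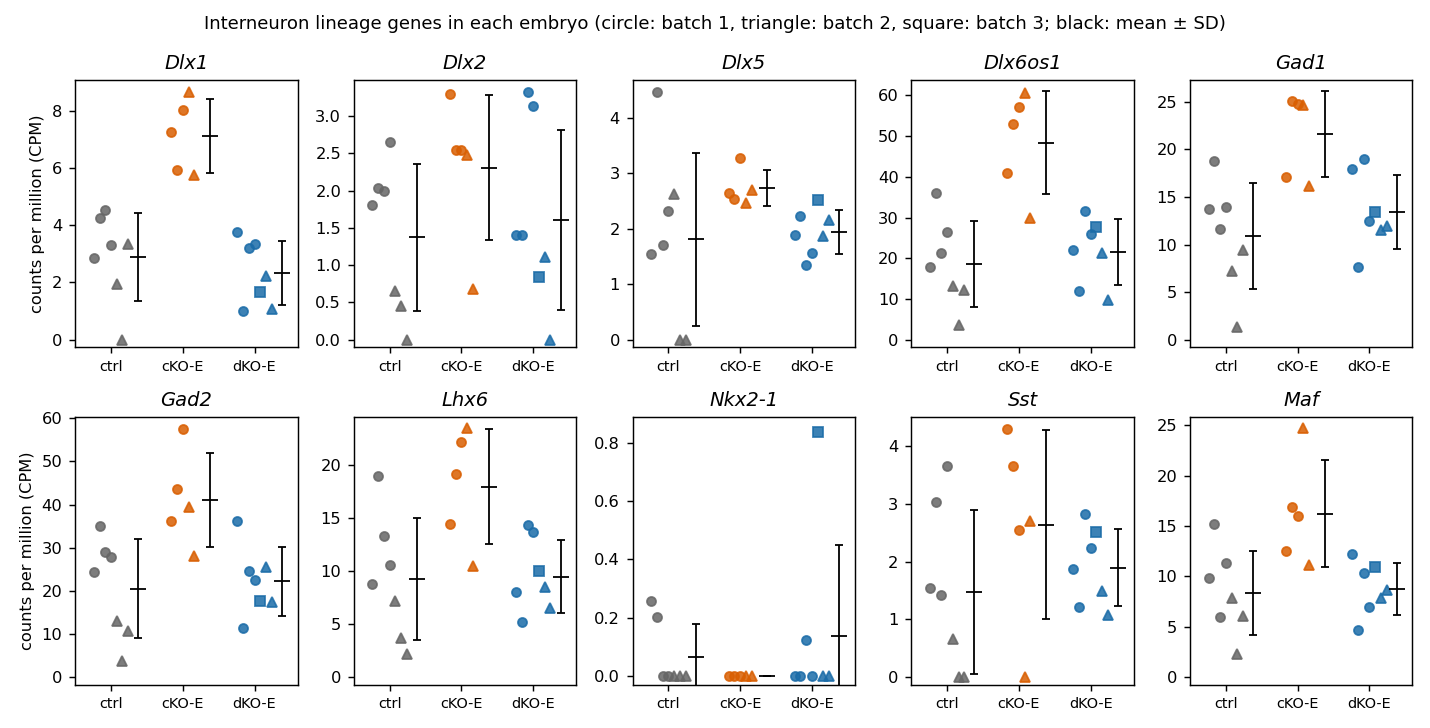
Level of each of the 10 genes in every embryo, in CPM on linear axes that differ between panels. Each point is an embryo (7 ctrl, 5 cKO-E, 7 dKO-E), its shape gives the batch, and black marks give the mean and SD. For *Dlx1* all 5 cKO-E embryos lie above all others, and *Nkx2-1* is at or near 0 throughout.

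The comparison of cKO-E with ctrl asks whether the lineage that Emx1-Cre spares changed in cortex whose own progenitors had lost *Ino80*. All 6 genes that could be fitted had fold changes above 1 in cKO-E, from 1.68 to 2.30, as did 53.4% of all genes. None of the 6 passed the false discovery rate of 0.001 (edgeR's quasi-likelihood test, adjusted over all 11660 genes tested), at which 1.06% of all genes rose. *Dlx6os1* and *Dlx1* passed at 0.05, at which 7.31% rose. All 6 had an unadjusted p under 0.05 in this direction, as did 14.3% of all genes. DESeq2 called 0 at 0.001, and edgeR's likelihood-ratio test, which the study used, called *Dlx1* (adjusted p = 0.000963) and *Dlx6os1* (0.000632), at a threshold where that test had 2.62% of all genes higher. The median log2 fold change of the 6 genes was 0.86, against 0.02 over all genes tested.

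*Dlx6os1*, a noncoding RNA of the *Dlx5*/*Dlx6* locus that acts on *Dlx* expression, had the largest difference. Its level was 40.9, 53.0, 57.2, 60.5 and 30.0 CPM in cKO-E embryos A to E, against a lowest, median and highest value of 3.66, 17.8 and 36.1 in ctrl. Only cKO-E embryo E lay within the ctrl range. The log2 fold change was 1.20 (SE 0.29, 95% interval 0.59 to 1.81, adjusted p = 0.00832). The second identifier that the annotation gives to this symbol had at most 1 count in any library and was not used.

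*Dlx1* encodes a homeodomain factor that interneurons need for migration and survival. It stood at 7.25, 5.92, 8.02, 8.65 and 5.74 CPM in cKO-E embryos A to E, from 7 to 22 counts each, and at a lowest, median and highest value of 0, 3.32 and 4.54 CPM in ctrl. The groups did not overlap, as held with cKO-E above for 3.19% of all genes. Its log2 fold change was 1.13 (SE 0.33, 95% interval 0.43 to 1.83, adjusted p = 0.0263). The ctrl embryo without a count, H, had a depth at which 3 counts are 1.37 CPM. The overlapping *Dlx1as* stood at 13.2 ± 7.64 CPM in ctrl (SD, n = 7) and 27.0 ± 8.68 in cKO-E (SD, n = 5).

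*Gad1* and *Gad2* encode the enzymes that make GABA from glutamate. *Gad2* stood at 36.3, 43.7, 57.6, 39.5 and 28.0 CPM in cKO-E embryos A to E, against a lowest, median and highest value of 3.66, 24.3 and 35.1 in ctrl, so that its log2 fold change came to 0.87 (SE 0.30, adjusted p = 0.0544). *Gad1* stood at 17.1, 25.1, 24.8, 24.7 and 16.2 CPM in cKO-E, against 1.37, 11.6 and 18.8 in ctrl, and its log2 fold change came to 0.85 (SE 0.29, adjusted p = 0.0539). Neither passed at 0.05 in this fit, and both did with batch as a covariate (adjusted p = 0.00255 for *Gad2* and 0.0125 for *Gad1*). For *Gad2* 4 of 5 cKO-E embryos were above the highest ctrl embryo, and for *Gad1* 3 of 5.

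*Lhx6*, the LIM homeodomain factor of interneurons from the medial ganglionic eminence, stood at 14.5, 19.2, 22.2, 23.5 and 10.5 CPM in cKO-E, against a lowest, median and highest value of 2.22, 8.79 and 19.0 in ctrl (log2 fold change 0.74, SE 0.33, adjusted p = 0.134). *Maf*, a factor of migrating interneurons that macrophages also express, stood at 12.5, 16.9, 16.0, 24.7 and 11.1 CPM in cKO-E, against 2.29, 7.85 and 15.2 in ctrl (log2 fold change 0.77, SE 0.29, adjusted p = 0.0811). For both, 3 of 5 cKO-E embryos lay above every ctrl embryo and the other 2 within the ctrl range. Microglial RNA moved alongside *Maf*. The summed level of 12 microglial markers was 19.0 to 36.1 CPM in ctrl, 46.5 to 69.5 in cKO-E and 16.0 to 25.4 in dKO-E. All 5 of the 12 that were tested rose in cKO-E at 0.05 (7.31% of all genes), while *Aif1* and *Tyrobp* had at most 3 counts in any library. The part of microglia in the *Maf* values was not tested.

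The 3 genes too low for the fit had 0 to 27 counts per library. *Dlx2*, the partner of *Dlx1*, averaged 1.37 ± 0.99 CPM in ctrl, 2.31 ± 0.973 in cKO-E and 1.60 ± 1.21 in dKO-E (SD, n = 7, 5 and 7). *Dlx5*, which acts downstream of *Dlx1* and *Dlx2*, averaged 1.81 ± 1.56, 2.72 ± 0.324 and 1.94 ± 0.397 CPM. *Sst*, the neuropeptide somatostatin of a large interneuron class, averaged 1.47 ± 1.43, 2.64 ± 1.64 and 1.89 ± 0.666 CPM. All had their highest mean in cKO-E. In 10 two-sided exact permutation tests over embryos, which also took in *Dlx1* between dKO-E and ctrl, none passed after adjustment, and the smallest p was 0.00505 (adjusted 0.0505) for *Dlx5* between dKO-E and cKO-E. The zeros among them lie at the limit of depth: 3 counts are 1.37 and 1.67 CPM in ctrl embryos H and I, 3.71 in cKO-E embryo D and 3.24 in dKO-E embryo G.

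**Figure D2:**
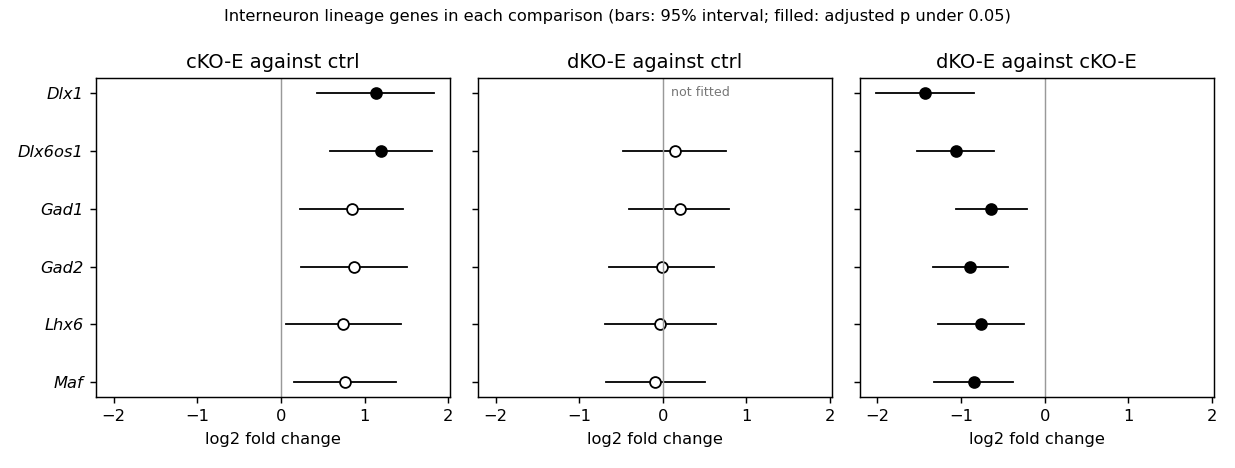
Log2 fold change of the 6 fitted genes in each comparison, with 95% intervals. Filled points have an adjusted p under 0.05 (edgeR's quasi-likelihood test). All 6 points lie above 0 for cKO-E against ctrl and below 0 for dKO-E against cKO-E, and every interval for dKO-E against ctrl includes 0.

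The comparison of dKO-E with ctrl asks whether the genes differed when *Trp53* was removed together with *Ino80*. It used the same ctrl libraries, so it is not independent of the comparison above. Of the 5 genes fitted, 0 were called at 0.001 or 0.05 by edgeR's quasi-likelihood test and 0 had an unadjusted p under 0.05 (13.1% of all genes higher and 16.5% lower), and the likelihood-ratio test and DESeq2 called 0 at 0.001. Among the 11381 genes tested, 2.58% were called at 0.001 and 15.5% at 0.05. Log2 fold changes were 0.14 for *Dlx6os1* (95% interval -0.48 to 0.76), 0.20 for *Gad1* (-0.40 to 0.79), -0.01 for *Gad2* (-0.64 to 0.61), -0.03 for *Lhx6* (-0.69 to 0.63) and -0.09 for *Maf* (-0.68 to 0.51). The intervals reach from -0.69 to 0.79, and values inside them are not excluded by these embryos.

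The values in dKO-E lay inside or close to the ctrl range. *Dlx6os1* had a lowest, median and highest value of 9.73, 22.1 and 31.7 CPM, and *Gad2* of 11.3, 22.4 and 36.3. *Gad1* ran from 7.66 over 12.5 to 19.0 CPM, *Lhx6* from 5.24 over 8.54 to 14.4 and *Maf* from 4.64 over 8.65 to 12.2. *Dlx1*, too low for the fit here, ran from 1.01 over 2.23 to 3.77 CPM, and its mean differed from ctrl by -0.563 CPM (exact permutation test, p = 0.446, adjusted 0.611). Embryo B of dKO-E was lowest or next to lowest for each of these 6 genes.

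The difference between the mutants was tested directly. This test used the same cKO-E and dKO-E libraries as the comparisons above, so it is not independent of them. At a false discovery rate of 0.05, all 6 fitted genes had lower values in dKO-E than cKO-E had, where 9.42% of all 11746 genes tested were lower. *Dlx1* had the largest difference, -1.43 on the log2 scale (SE 0.28, adjusted p = 0.00166), and its groups did not overlap, as held with dKO-E below for 4.64% of all genes. *Dlx6os1* followed at -1.06 (SE 0.22, adjusted p = 0.0022) and *Gad2* at -0.89 (SE 0.21, adjusted p = 0.00749). *Maf* differed by -0.85 (SE 0.22, adjusted p = 0.0143), *Lhx6* by -0.76 (SE 0.24, adjusted p = 0.0409) and *Gad1* by -0.64 (SE 0.20, adjusted p = 0.0394). These adjusted p are all above 0.001. The median was -0.87, against 0.02 over all genes. *Gad1* lost its call when any of cKO-E embryos B, C and D or dKO-E embryos B, D, E, F and G was left out (adjusted p up to 0.127), and *Lhx6* when any of cKO-E embryos B, C and D or dKO-E embryos A, B, E, F and G was (up to 0.142), while *Dlx1*, *Dlx6os1*, *Gad2* and *Maf* kept theirs without any single embryo.

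Litter, batch and sex, as the labels give them, bear on all 3 comparisons. All cKO-E embryos but C were female and all dKO-E embryos but A and B were male, while ctrl held both sexes. Between the mutants, 6 of 6 genes were lower in dKO-E at 0.05 with sex as a covariate (11.7% of all genes lower). In females alone 3 of 7 were (5.57%). The cKO-E embryos came from litters 3 to 7, the dKO-E embryos from litters 1 and 2, and the ctrl embryos from litters 1, 4, 5 and 7, so litter and genotype cannot be told apart between the mutants. Litters 4, 5 and 7 held a cKO-E embryo and ctrl littermates, and in each of the 3 the cKO-E embryo was above every ctrl littermate for all 6 genes. The summed level of the 10 genes was 172 CPM in the cKO-E embryo of litter 4 and 90.9 in its ctrl littermate. It was 194 against 102 and 54.3 in litter 5, and 108 against 43.9 and 15.1 in litter 7. With litter as a block the median log2 fold change between cKO-E and ctrl was 1.20, and 5 of the 6 genes passed 0.05, as did 5.51% of all genes in this direction, with adjusted p of 0.00196 for *Dlx6os1*, 0.00581 for *Gad2*, 0.00986 for *Gad1*, 0.0125 for *Maf* and 0.0258 for *Lhx6*. *Dlx1*, which passed without the block, did not pass with it (log2 fold change 1.17, adjusted p = 0.0901). With only the shared litters, *Dlx6os1* was called (log2 fold change 1.51, adjusted p = 0.000978) at 0.001, at which 0.55% of all genes were higher, an alternative chosen after seeing the data. In litter 1, the dKO-E embryos had 106, 46.6 and 111 CPM and the ctrl littermates 82.4 and 138, so these ranges overlapped.

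**Figure D3:**
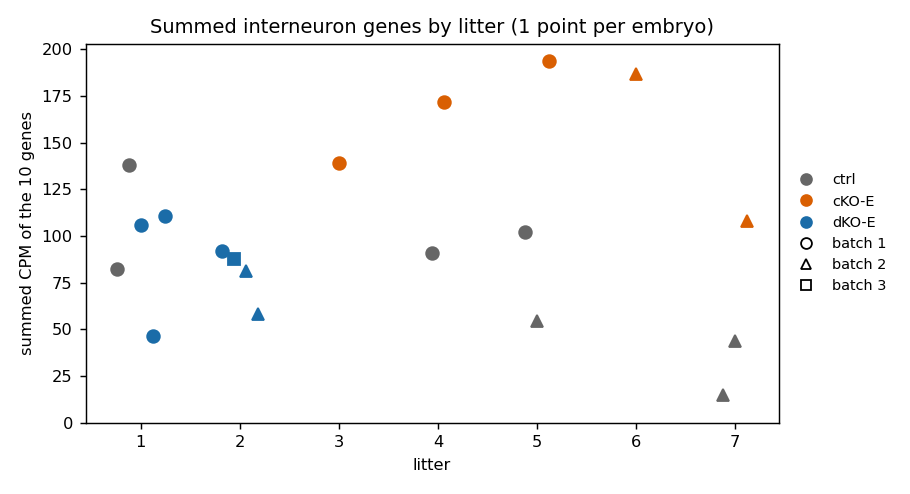
Summed level of the 10 genes (CPM, y axis) by litter (x axis), 1 point per embryo, with colour for the group and shape for the batch. In litters 4, 5 and 7 the cKO-E embryo lies above its ctrl littermates, and the 3 ctrl embryos of batch 2 hold the lowest ctrl values, from 15.1 to 54.3 CPM.

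The 3 ctrl embryos of batch 2 (F, H and I) stood apart from the 4 ctrl embryos of batch 1. Their summed level was 54.3, 15.1 and 43.9 CPM, against 82.4 to 138 in batch 1. Embryos H and I of litter 7 also had the largest shares of reads outside genes, 11.1% and 12.5%, against at most 9.73% in the other libraries. The part of these shares in the result was not tested. Within batch 1 the log2 fold changes between cKO-E and ctrl were 0.88 for *Dlx1*, 0.95 for *Dlx6os1*, 0.59 for *Gad1*, 0.63 for *Gad2*, 0.48 for *Lhx6* and 0.48 for *Maf*. Within batch 2 they were 1.95, 2.12, 1.72, 1.87, 1.78 and 1.58 in the same order. With batch as a covariate all 6 genes passed 0.05 between cKO-E and ctrl, where 9.48% of all genes were higher. The log2 fold changes of that fit were 1.22 for *Dlx6os1* (adjusted p = 0.000653), 1.14 for *Dlx1* (0.0121), 0.76 for *Lhx6* (0.0421) and 0.76 for *Maf* (0.0449), beside the *Gad2* and *Gad1* values given above. Without the 3 ctrl embryos of batch 2, an alternative chosen after seeing the data, the median over the 6 genes fell to 0.50 from 0.86, with *Dlx6os1* at 0.85 (adjusted p = 0.00767) and *Dlx1* at 0.85 (0.0235), where 6.15% of all genes were higher at 0.05. *Dlx1* no longer passed 0.05 when cKO-E embryo A, C or D was left out (adjusted p up to 0.0749). Without ctrl embryo B, whose summed level was the highest in ctrl, *Dlx6os1* was called at 0.001 (log2 fold change 1.48, adjusted p = 0.000928, 1.16% of all genes higher) and *Gad1*, *Gad2*, *Lhx6* and *Maf* had adjusted p between 0.0136 and 0.0194, with 8.25% of all genes higher at 0.05. *Gad1* and *Gad2* also passed 0.05 without ctrl embryo H (adjusted p = 0.024 and 0.036) or cKO-E embryo E (0.0468 and 0.0382).

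For dKO-E against ctrl the direction turned between batches. All 5 genes were lower in batch 1, by log2 fold changes from -0.39 for *Maf* to -0.06 for *Gad1*, and all 5 were higher in batch 2, from 0.63 for *Maf* to 1.38 for *Gad2*, with no adjusted p under 0.05 in either. Without the ctrl embryos of batch 2 their median was -0.38. For dKO-E against cKO-E all 6 stayed lower in both, from -1.34 for *Dlx1* to -0.65 for *Gad1* in batch 1, where *Dlx1*, *Dlx6os1* and *Gad2* passed 0.05 and 6.62% of all genes were lower, and from -1.74 for *Dlx1* to -0.47 for *Gad2* in batch 2, where adjusted p ran from 0.0534 to 0.536 in a fit of 2 cKO-E and 2 dKO-E libraries.

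Meningeal RNA also set some libraries apart. The summed level of 8 genes of meninges and mesenchyme was 73.3 CPM in ctrl embryo F and 71.8, 48.8 and 36.0 in dKO-E embryos B, C and E, against 1.24 to 15.1 in the other 15 libraries, and none of the 8 genes was high enough for the fit between cKO-E and ctrl. Without these 4 libraries, an alternative chosen after seeing the data, *Dlx6os1* (adjusted p = 0.0157) and *Dlx1* (0.0424) still passed 0.05 between cKO-E and ctrl. Between dKO-E and cKO-E 5 of 6 genes did, where 7.05% of all genes were lower, and *Lhx6* did not (log2 fold change -0.78, adjusted p = 0.0585).

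**Figure D4:**
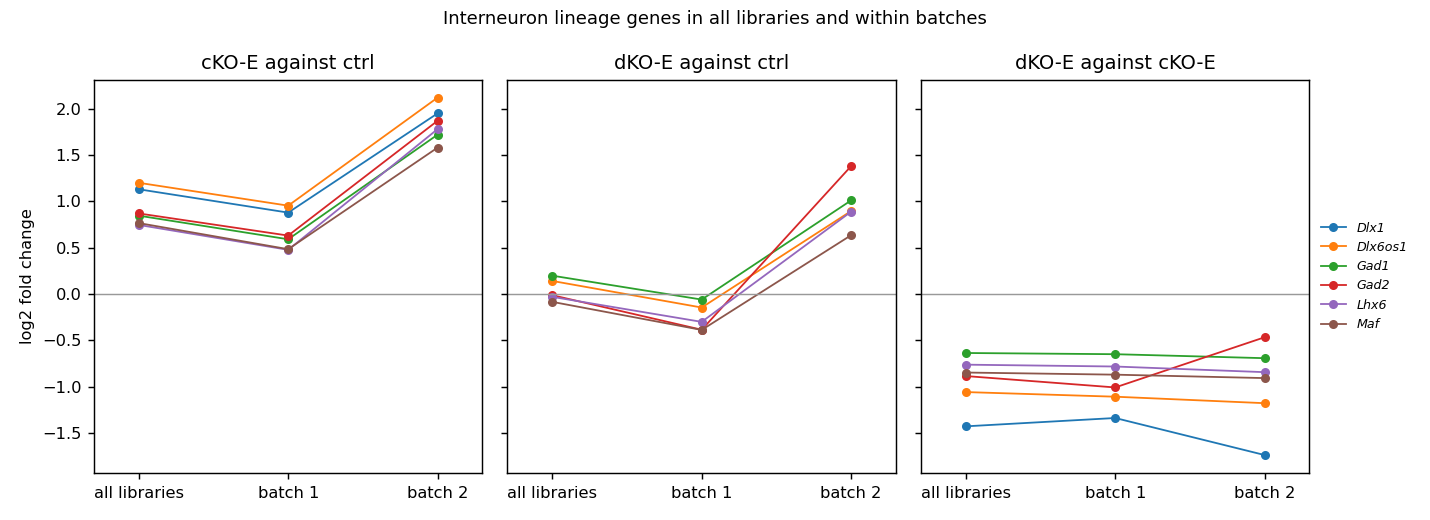
Log2 fold change (y axis) of the fitted genes with all libraries, in batch 1 alone and in batch 2 alone, for each comparison. Values against ctrl are higher in batch 2, where dKO-E turns from below to above ctrl, while dKO-E stays below cKO-E in both batches.

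The 6 genes varied together between embryos of the same genotype. On log2(CPM + 0.5) centred within genotype, the 15 pairs had Pearson correlations between 0.57 and 0.92 over 19 embryos, with a median of 0.83, and 14 of 15 had an adjusted p under 0.05 (100000 permutations within genotype, adjusted over the pairs). The highest was between *Gad1* and *Gad2* and the lowest between *Dlx1* and *Lhx6* (adjusted p = 0.0507). Spearman's rho lay between 0.45 and 0.92, with 14 of 15 pairs under 0.05. Without the 2 embryos farthest from the median of the first gene, 12 pairs stayed under 0.05 and r lay between 0.20 and 0.87, the lowest for *Dlx1* and *Maf*. Within the 11 embryos of batch 1, r lay between 0.45 and 0.92 and 6 pairs were under 0.05. All pairs share the libraries, their depth and the scaling.

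**Figure D5:**
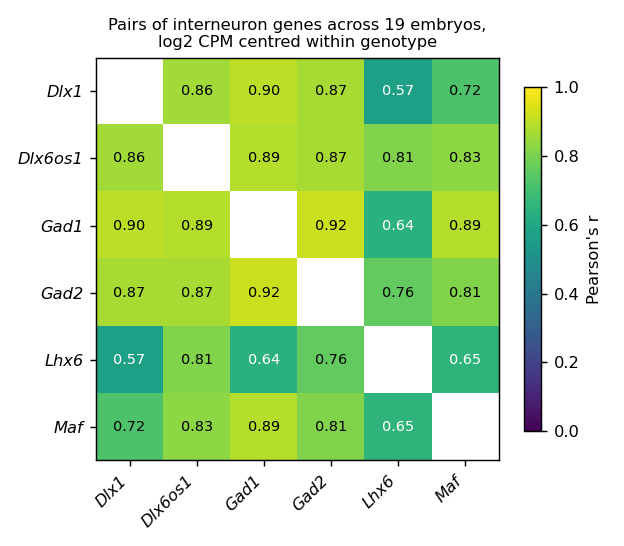
Pearson's r for each pair of the 6 genes across 19 embryos, on log2(CPM + 0.5) centred within genotype, as colour and number. Values run from 0.57 for *Dlx1* with *Lhx6* to 0.92 for *Gad1* with *Gad2*.

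Across 12042 genes, the mean of the 6 genes was followed most closely by *Nxph1*, *Chl1*, *Pde4dip*, *Tiam2*, *Rabgap1l*, *Shank1*, *Mir124a-1hg*, *Kctd8*, *Pde4d* and *Erbb4*, with r from 0.94 to 0.96 over 19 embryos after centring within genotype, where the 95th percentile of all genes was 0.693. *Nxph1* and *Erbb4* were on the interneuron lists used here, and neurexophilin and the neuregulin receptor are both found in migrating interneurons. *Nxph1* averaged 196, 399 and 213 CPM in ctrl, cKO-E and dKO-E, and *Erbb4* 349, 720 and 394. In contrast *Tiam2* (841, 774 and 663 CPM) and *Pde4d* (583, 558 and 443) had their highest mean in ctrl, so for these genes likeness within genotypes did not go with likeness between them. Of other measures, the mean of the 6 genes had r = 0.92 (rho = 0.94, 0.94 without the 2 farthest embryos) with the summed pallial list, of which *Sox5* is the most abundant gene, -0.67 with the share of reads outside genes, -0.59 with the microglial sum and 0.26 with the log of total counts. These are descriptions over 19 embryos that share libraries and batches, and their part in the differences between groups was not tested.

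Genes with related roles were read in lists that hold none of the 10 genes. Of the genes for GABA synthesis and transport, *Slc6a11* and *Abat* had adjusted p of 0.151 and 0.124 in cKO-E and of 0.252 and 0.423 in dKO-E against ctrl. The transporter gene *Slc6a11* stood at 4.52, 7.77 and 3.71 CPM in ctrl, cKO-E and dKO-E and differed between the mutants (log2 fold change -1.27, SE 0.28, adjusted p = 0.00379). *Abat*, which encodes the enzyme that breaks down GABA, stood at 15.6, 19.6 and 12.2 CPM.

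Of 6 genes of interneuron migration, all 6 were tested and 3 rose in cKO-E at 0.05, at which 7.31% of all genes rose. These were *Cxcr4*, the receptor that guides interneurons along their migratory streams (log2 fold change 0.73, adjusted p = 0.00441, no overlap with ctrl), *Erbb4* (1.03, 0.0158) and the neuregulin gene *Nrg3* (0.49, 0.021). *Ackr3*, *Cxcl12* and *Nrg1* had values of 0.34, 0.46 and 0.05 that did not pass. In dKO-E against ctrl *Cxcl12* was higher (0.75, adjusted p = 0.021). *Erbb4*, *Nrg3*, *Nrg1* and *Ackr3* were lower in dKO-E when the mutants were compared at 0.05, at which 9.42% of all genes were lower. Of 11 subtype markers, 5 were tested and 3 rose in cKO-E at 0.05 (7.31% of all genes): *Nxph1* (1.00, adjusted p = 0.025), *Elfn1* (0.83, 0.047) and *Calb2* (0.94, 0.0148). *Calb2* is also made by Cajal-Retzius cells. Of that list's 5 tested genes *Reln*, *Ebf3* and *Trp73* rose at 0.001 (1.06% of all genes) and *Ndnf* at 0.05. The summed level of the list was 545 to 747 CPM in ctrl, 890 to 1010 in cKO-E and 491 to 682 in dKO-E. The part of Cajal-Retzius cells in the other values was not tested. *Vip* and *Pvalb*, which mark later subtypes, had no count in any library.

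The other interneuron transcription factors did not move as a group. Of 11, 9 were tested, with a median log2 fold change of -0.02 in cKO-E, against 0.02 over all genes. *Sox6*, which cortical progenitors also express, fell from 1740 to 1210 CPM (log2 fold change -0.52, adjusted p = 0.00044). *Sp9* stood at 2.40, 4.93 and 3.10 CPM in ctrl, cKO-E and dKO-E. Its ctrl embryos ran from 0 to 5.88 CPM, and it did not pass 0.05 in cKO-E against ctrl (adjusted p = 0.35). *Nr2f2*, a factor of the caudal ganglionic eminence, stood at 27.7, 50.3 and 15.9 CPM in the same order. Its cKO-E embryos ran from 18.6 to 101 CPM, and it did not pass 0.05 in cKO-E against ctrl (adjusted p = 0.112). *Nr2f2* differed between the mutants (-1.55, adjusted p = 0.00139). In dKO-E *Zeb2* (-0.34, adjusted p = 0.0336) and *Sox6* (-0.21, 0.0451) fell against ctrl.

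Genes that are active in subpallial tissue were present at very different levels. The summed level of 16 striatal and basal forebrain genes was 3000 to 3340 CPM in ctrl, 2130 to 2670 in cKO-E and 2520 to 3110 in dKO-E, and *Meis2* and *Foxp2*, which neurons of the cortex express too, averaged 2560 and 560 CPM in ctrl. The 8 progenitor factors of the subpallium summed to 11.7 to 17.9 CPM in ctrl. Their part in the values of the 10 genes was not tested. Of the 16 genes, 4 were tested in cKO-E. *Ebf1* rose (log2 fold change 1.04, adjusted p = 3.86e-06), *Foxp2* (-0.59, 0.000177) and *Meis2* (-0.41, 0.000229) fell, and *Ikzf1* had 0.50 (0.151). Of the pallial genes, 7 of 15 fell in cKO-E at 0.05, at which 9.88% of all genes fell, and the other 8 had adjusted p of 0.127 or more. The 7 were *Lhx2*, *Neurog2*, *Emx2*, *Emx1*, *Eomes*, *Pax6* and *Fezf2*. The list did not fall as a whole: *Tbr1* (0.20), *Neurod2* (0.09) and *Slc17a6* (0.01) had log2 fold changes above 0. *Sox5* (-0.09) and *Neurod6* (-0.11) lay close below 0. The median of the 15 was -0.32, against 0.86 for the 6 interneuron genes and 0.02 for all genes. *Lhx2*, a selector of cortical identity, fell most clearly (-0.66, adjusted p = 7.51e-05), and *Emx1* itself, whose locus carries the Cre, stood at 109 ± 11.5, 84.1 ± 10.2 and 116 ± 18.1 CPM in ctrl, cKO-E and dKO-E (SD, n = 7, 5 and 7). In dKO-E *Emx2* (-0.45, adjusted p = 0.0333) and *Sox5* (-0.40, 0.0473) fell against ctrl. Between the mutants, *Emx1* and *Lhx2* were higher and *Tbr1* lower in dKO-E.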

How the data were processed

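RNA from E13.5 cortex was sequenced as 1 Click-seq library per embryo, with unique molecular identifiers. The authors depleted ribosomal RNA, trimmed reads with cutadapt 1.13, aligned them with STAR 2.5.2a to mm10, removed duplicates with UMI-tools 0.5.3 and counted reads with htseq-count (HTSeq 0.6.1p1, intersection-nonempty); versions are from the submitters' processing notes, and the strand setting and feature type are not given in the sources used here. The deposited values are these raw counts per gene, without normalization. Rows that name no gene stayed out of library sizes: they held 4.96% to 12.5% (outside genes), 1.78% to 2.07% (ambiguous) and 14.9% to 20.9% (not unique) of reads.

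Symbols came from GENCODE M21 (GRCm38), matched without version; 51633 of 51912 identifiers were found. The 10 genes and the comparison lists were chosen with earlier results of these data known. Groups follow the genotype labels, and each pair of groups had a fit of its own without covariates: filterByExpr (minimum count 10), TMM factors and the quasi-likelihood test of edgeR 4.0.16 in R 4.3.3, with Benjamini-Hochberg adjustment over all genes tested. The threshold against ctrl was a false discovery rate of 0.001, as in the study, with 0.05 given beside it, and 0.05 between the mutants. Genes too low for the fit were tested by exact permutation of CPM over embryos. Standard errors were taken as the absolute log2 fold change over the root of its F statistic. The median total count was 2952788 (range 820915 to 8095810), and limits from 3 counts cover counting error only. Whether embryos of a group are independent beyond their litters is not stated, so p-values measure the spread between these libraries.

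Genes named in the text are the 10 genes, in each list the called genes and otherwise those with the smallest p up to 4, the 10 genes most like the mean of the 6 fitted genes, and *Ino80* and *Trp53*; some of these are not reported here. *Emx1* is a list gene, and *Dlx1as* was added as an overlapping gene. Of further lists, thalamus and hypothalamus had 1 of 2 tested genes past 0.05 between cKO-E and ctrl by edgeR (*Tcf7l2*, lower). Endothelial cells (6 tested) and red blood cells (2 tested) had 0. In this comparison 7.31% of all genes were higher and 9.88% lower at 0.05. No gene of the meninges and choroid plexus lists passed the filter in this comparison, so neither list was tested in it. Alternatives were the likelihood-ratio test, DESeq2 1.42.0, other scalings and filters, batch or sex as covariates, litter or title letter as a block, a joint fit, single batches, single sexes, other thresholds and each library left out. The tests were run on simulated data first. Plots used Python 3.11.15 with matplotlib 3.10.9.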

Additional observations from a re-analysis of the deposited data

Results flagged for a closer look

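The level of *Dlx5* in cKO-E embryo C, 3.28 CPM, lay apart from the other 4 cKO-E embryos, which were between 2.47 and 2.70 CPM. It rests on 9 counts, against 2 to 9 in the others. The distance of the highest and lowest embryo from the rest was checked in 27 groups of embryos, and chance alone gives about 1 such value in 20 groups.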

How the results depend on the processing

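Between cKO-E and ctrl 0 of 6 genes were called at 0.001, where 1.06% of all genes rose. The likelihood-ratio test gave 2 (2.62% of all genes), and the fit of every gene with at least 1 count gave 1 of 10 (1.02%). Batch as a covariate gave 1 (2.1%), and only shared litters with litter as a block 1 (0.55%, added after seeing the data). Thresholds of 0.01 and 0.05 gave 1 and 2, with 7.31% of all genes higher at 0.05 and the share at 0.01 not worked out. Leaving out each embryo gave 0 to 1 (0.603% to 1.16% of all genes). Read at 0.05, 2 passed (7.31% of all genes higher). The count was 6 with batch as a covariate (9.48%). It was 5 with litter as a block (5.51%), sex as a covariate (8.14%) or the likelihood-ratio test (8.52%). The fit of every gene with at least 1 count gave 5 of 10 (3.21%), and batch 1 alone 4 of 7 (5.29%). DESeq2 (6.49%), upper-quartile factors (8.4%), total counts (9.16%), the letter block (6.47%) and the joint fit (7.3%) gave 4. RLE factors (7.16%), batch 2 alone (2.81%) and females alone (4.61%) gave 2. Leaving out each embryo gave 1 to 6 at 0.05 (4.64% to 8.25% of all genes). All 6 were higher under each of these settings and of the other alternatives run. Of the single-gene results, judged at 0.001, 179 kept their side of that threshold and 7 newly passed it. The 179 include the main fit listed under the thresholds of 0.01 and 0.05, which could not change side. Between dKO-E and cKO-E 6 of 6 genes passed 0.05, where 9.42% of all genes were lower. Genes with at least 10 counts in every library gave 2 of 2 (10.4%), and batch 1 alone 3 of 8 (6.62%). Batch 2 alone gave 0 of 6 (2.59%) and females alone 3 of 7 (5.57%). Thresholds of 0.001 and 0.01 gave 0 and 3, with 2.75% of all genes lower at 0.001 and the share at 0.01 not worked out. Leaving out each embryo gave 4 to 6 (6.62% to 9.49% of all genes lower), and the joint fit of all libraries 4 (8.62%). The 14 correlated pairs fell to 6 in batch 1 alone. The cause of these changes was not tested. The letters in the titles did not pair embryos: deviations of same-lettered embryos correlated between -0.36 and 0.14. With the letter as a replicate block, 1 gene was called between cKO-E and ctrl at 0.001 (1.13% of all genes higher). Between dKO-E and ctrl 0 were called at 0.001 (0.00879% of all genes higher and 0.316% lower). Between the mutants 4 were called at 0.05 (7.93% lower).

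Between dKO-E and ctrl the values near 0 changed sign without being called. *Gad2* gave log2 fold changes of 0.084 (likelihood-ratio test), 0.0958 (DESeq2), 0.00898 (upper-quartile factors), 0.0886 (total counts), 1.38 (batch 2), 0.179 (females) and 0.154 without the 4 libraries of high meningeal RNA (added after seeing the data). *Lhx6* gave 0.00492, 0.00962 and 0.0666 with the likelihood-ratio test, DESeq2 and total counts, and 0.888 in batch 2. *Maf* gave 0.0131 (total counts), 0.634 (batch 2) and 0.197 (females). *Dlx6os1* gave -0.0387 (sex as a covariate), -0.29 (litter block), -0.0904 (letter block), -0.147 (batch 1), -0.0845 (males) and -0.203 without the ctrl embryos of batch 2, an alternative chosen after seeing the data. *Gad1* gave -0.16, -0.00989, -0.0611, -0.0408 and -0.121 with litter block, letter block, batch 1, males and without those ctrl embryos. With single embryos left out the values ran from -0.169 to 0.181 for *Gad2*, -0.216 to 0.283 for *Lhx6*, -0.225 to 0.171 for *Maf* and -0.0271 to 0.419 for *Dlx6os1*. Scaling by total counts moved the median of all genes to 0.103 in this comparison, above the 0.0886 of the 5 genes. The strict filter left none of the genes in the comparisons with ctrl, so it gave no value there. Males alone (cKO-E against ctrl, and dKO-E against cKO-E) and litter as a block (dKO-E against cKO-E) were not run for want of embryos or shared litters.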
